A study of Homo sapiens with 12 samples.

Results

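Tumour necrosis factor alpha (TNFα) given alone was compared with vehicle in T-HESC, which are stromal cells of the human endometrium made immortal by telomerase and grown as a line. The 6 arrays of these treatments, out of 12 in the series, were taken by their labels: 3 with TNFα at 5 ng/ml and 3 with vehicle. Cultures were treated for 48 h after 24 h without serum, and the arrays of a group came from passage 13 (replicate 1), passage 28 (replicate 2) and passage 15 (replicate 3) of the one line. The other 6 arrays, 3 with TNFα plus interleukin 1 beta (IL1β) at 1 ng/ml and 3 with IL1β alone, came from the same passages and were used for the estimate of spread and for a second look at the called genes and a few others. One culture went on each CodeLink array, a whole-genome array read in a single colour, and a value is a probe's intensity in multiples of about the median of its array. Below, values of a group are listed in the order passage 13, 28, 15.

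TNFα binds 2 receptors on the cell surface. Through adaptor proteins and the IκB kinases these free NF-κB, a family of paired transcription factors, which turns on genes for chemokines, cytokines and adhesion molecules together with proteins that shut the pathway down again. TNFα can also raise genes better known from the interferon response. In the endometrium, stromal cells answer such signals around menstruation and implantation, and the cytokine has long been studied in endometriosis.

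Signals could be tested for 53671 probes, which covered 18106 genes by a single-gene probe, and each gene was represented by its brightest such probe. Depth of measurement is not a quantity of these arrays, and the 3 arrays per group limited the precision. On bright probes the first principal component (47.9% of the variance) placed vehicle replicate 3 (97.6) and TNFα replicate 3 (61.3), both passage 15, far from the other TNFα and vehicle arrays, with vehicle replicate 1 at the other end (−83.7). On the second component (17.3%) the TNFα arrays lay at −2.7 to 11.4 and the vehicle arrays at −53.7 to −32.9. The part of these positions in the results was not tested beyond the fits that leave arrays out. All 15 stromal markers measured were brighter than the median probe, against 9 of 15 epithelial, 2 of 12 endothelial and 2 of 12 leukocyte markers. Of smooth muscle and pericyte markers 4 of 7 were brighter, and of all genes tested 12012 of 18106. No member of these marker lists was called. Values are relative to the array, so less RNA per cell and fewer cells giving it cannot be told apart.

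TNFα raised 12 genes and lowered 2 at an adjusted p under 0.05, which is 0.0663% and 0.011% of the genes tested (limma over 53671 probes, of which 25 or 0.0466% passed, 22 higher and 3 lower). The raised genes were HSD11B1, CCL5, IL32, G0S2, SOD2, CTSS, BST2, ALKAL2, CCL2, EBI3, GBP1P1 and STAP2, and the lowered ones were MEST and CRABP2. With the shared passage as a block 13 probes (0.0242%) and 9 genes (0.0497%) passed, and CCL5, CCL2, EBI3, STAP2 and GBP1P1 did not (adjusted p = 0.0868 to 0.139). When limma was given no more than these 6 arrays, 0 probes were called, and likewise in a fit without the 3 arrays of the series that lay apart on the first component, a choice made after seeing the data. Without the 4 arrays at its ends, 4 genes were called and none of the 14 was among them (adjusted p = 0.0547 to 0.394). At an unadjusted p under 0.05 there were 3784 probes (7.05%), where chance gives 2684.

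**Figure D1:**
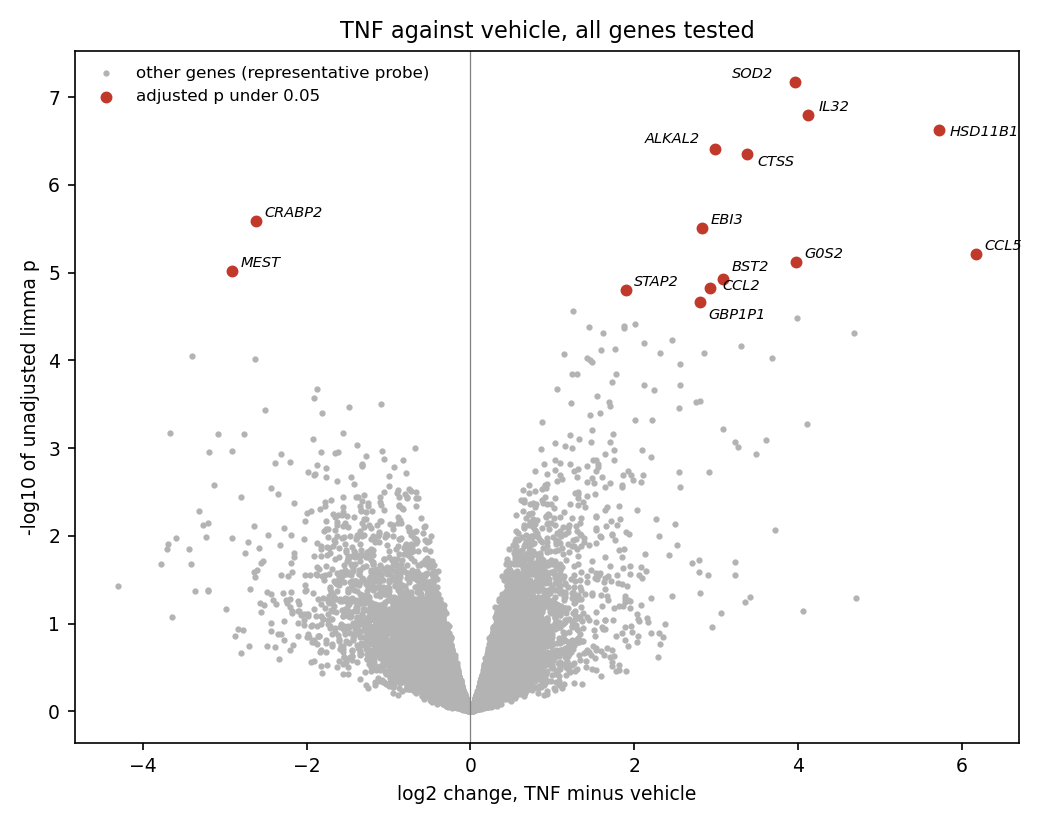
Each point is the representative probe of a gene, with the log2 change (TNFα minus vehicle) on the x axis and −log10 of the unadjusted limma p on the y axis. The 14 genes with an adjusted p under 0.05 are in red, 12 of them right of 0 and 2 left of it.

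HSD11B1, the enzyme that regenerates active cortisol from cortisone inside cells, had the largest rise among called genes measured on all 6 arrays. Its intensity was 50.1, 21.5 and 45.7 with TNFα, against 1.00, 0.383 and 0.867 with vehicle. Vehicle cultures thus sat at or under the median probe, and every TNFα array lay far above all of them. The log2 difference was 5.73 ± 0.47 (SE, n = 3 per group, adjusted p = 0.00319), and within the passages it was 5.64, 5.81 and 5.72, a narrow range although both groups were lowest at passage 28. A second HSD11B1 probe rose by 5.40 ± 0.45.

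SOD2, the manganese superoxide dismutase of mitochondria, read 72.3, 47.5 and 88.6 with TNFα, against 3.25, 4.49 and 5.55 with vehicle. The lowest TNFα array was well above the highest vehicle array, and the difference was 3.96 ± 0.29 (adjusted p = 0.00319). Its second, much dimmer probe differed by 0.16 and did not pass. IL32, a cytokine made by stimulated lymphocytes, epithelium and stroma, read 191, 192 and 196 with TNFα, against 7.17, 15.1 and 12.3 with vehicle. The 3 TNFα arrays were nearly equal, so that the spread of this gene lay in the vehicle group, and the difference was 4.13 ± 0.33 (adjusted p = 0.00319). CTSS encodes cathepsin S, a lysosomal protease that trims the chain guarding MHC class II molecules. It read 35.0, 16.9 and 30.2 with TNFα and 3.04, 2.41 and 2.16 with vehicle, a difference of 3.38 ± 0.30 (adjusted p = 0.00395). ALKAL2, a ligand of the receptor tyrosine kinases ALK and LTK, was dim, at 2.06, 1.22 and 1.93 with TNFα against 0.246, 0.220 and 0.177 with vehicle (2.99 ± 0.26, adjusted p = 0.00395). The calls of SOD2, IL32, HSD11B1, CTSS and ALKAL2 held whichever 1 of the 6 arrays was left out (highest adjusted p = 0.0303 to 0.0332). Of the other 9 called genes, all lost the call without TNFα replicate 1, 8 without TNFα replicate 3, 8 without vehicle replicate 3, 7 without vehicle replicate 2, 5 without vehicle replicate 1 and 2 without TNFα replicate 2 (adjusted p = 0.0522 to 0.139). With a whole passage left out, its arrays with IL1β included, none of the 14 genes passed (adjusted p = 0.104 to 0.548). Those fits thus also had fewer arrays for the estimate of spread.

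G0S2, which inhibits the triglyceride lipase of lipid droplets, read 55.9, 25.9 and 86.8 with TNFα, against 1.96, 3.70 and 4.39 with vehicle (3.98 ± 0.48, adjusted p = 0.0271). It and HSD11B1 are neighbours on chromosome 1: in RefSeq on GRCh38.p14 the genes lie 9788 bases apart with 0 listed genes between them. BST2, also called tetherin, holds budding enveloped viruses at the cell surface. It read 7.93, 3.62 and 4.91 with TNFα, against 0.852, 0.577 and 0.463 with vehicle (3.09 ± 0.39, adjusted p = 0.0353). Both groups of these genes were clearly separate, and the G0S2 and BST2 calls also stood with the passage block (adjusted p = 0.0367 and 0.0395).

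The lymphocyte and monocyte attractant CCL5 had the highest fitted change and the least complete data. It read 129, 30.2 and 137 with TNFα and 1.73 and 0.724 with vehicle, where the passage 13 array gave no value (6.18 ± 0.67, vehicle n = 2, adjusted p = 0.0255). CCL2, the main attractant of monocytes, read 29.2, 17.3 and 29.9 with TNFα and 2.12, 3.01 and 5.36 with vehicle (2.93 ± 0.38, adjusted p = 0.0425). EBI3, the subunit shared by interleukins 27 and 35, read 13.7, 8.82 and 10.8 with TNFα and 0.992, 2.22 and 1.64 with vehicle (2.83 ± 0.31, adjusted p = 0.0153). No TNFα array overlapped a vehicle array for any of the 3 genes. STAP2, an adaptor protein of cytokine receptor signalling, read 7.39, 8.38 and 4.61 with TNFα and 1.93, 1.91 and 1.51 with vehicle (1.90 ± 0.25, adjusted p = 0.043). GBP1P1, a transcribed pseudogene of the interferon-inducible GTPase GBP1, read 2.83, 1.63 and 2.00 with TNFα and 0.304, 0.390 and 0.232 with vehicle (2.80 ± 0.38, adjusted p = 0.0465). A second GBP1P1 probe differed by 0.60, and the probe of GBP1 itself by 0.30 ± 0.25 (adjusted p = 0.888), with overlapping groups. Pseudogene and gene have similar sequence, so which transcript the GBP1P1 probe reports is uncertain. The GBP1P1 call also ended with quantile normalization (adjusted p = 0.068), with median centring (0.0503) and with array weights (0.0775).

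CRABP2, the protein that delivers retinoic acid into the nucleus, was 4.33, 9.68 and 4.61 with TNFα, against 35.7, 36.8 and 34.3 with vehicle. The vehicle arrays were close together and the TNFα array of passage 28 lay nearest to them. The gene fell by 2.62 on the log2 scale (SE 0.28, adjusted p = 0.0147). MEST, an imprinted gene of the mesoderm that is expressed from the paternal allele, was 1.5, 2.06 and 0.912 with TNFα, against 13.4, 11.5 and 7.71 with vehicle, and fell by 2.91 (SE 0.36, adjusted p = 0.0303). Both calls stood with the passage block (adjusted p = 0.0395 for each).

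**Figure D2:**
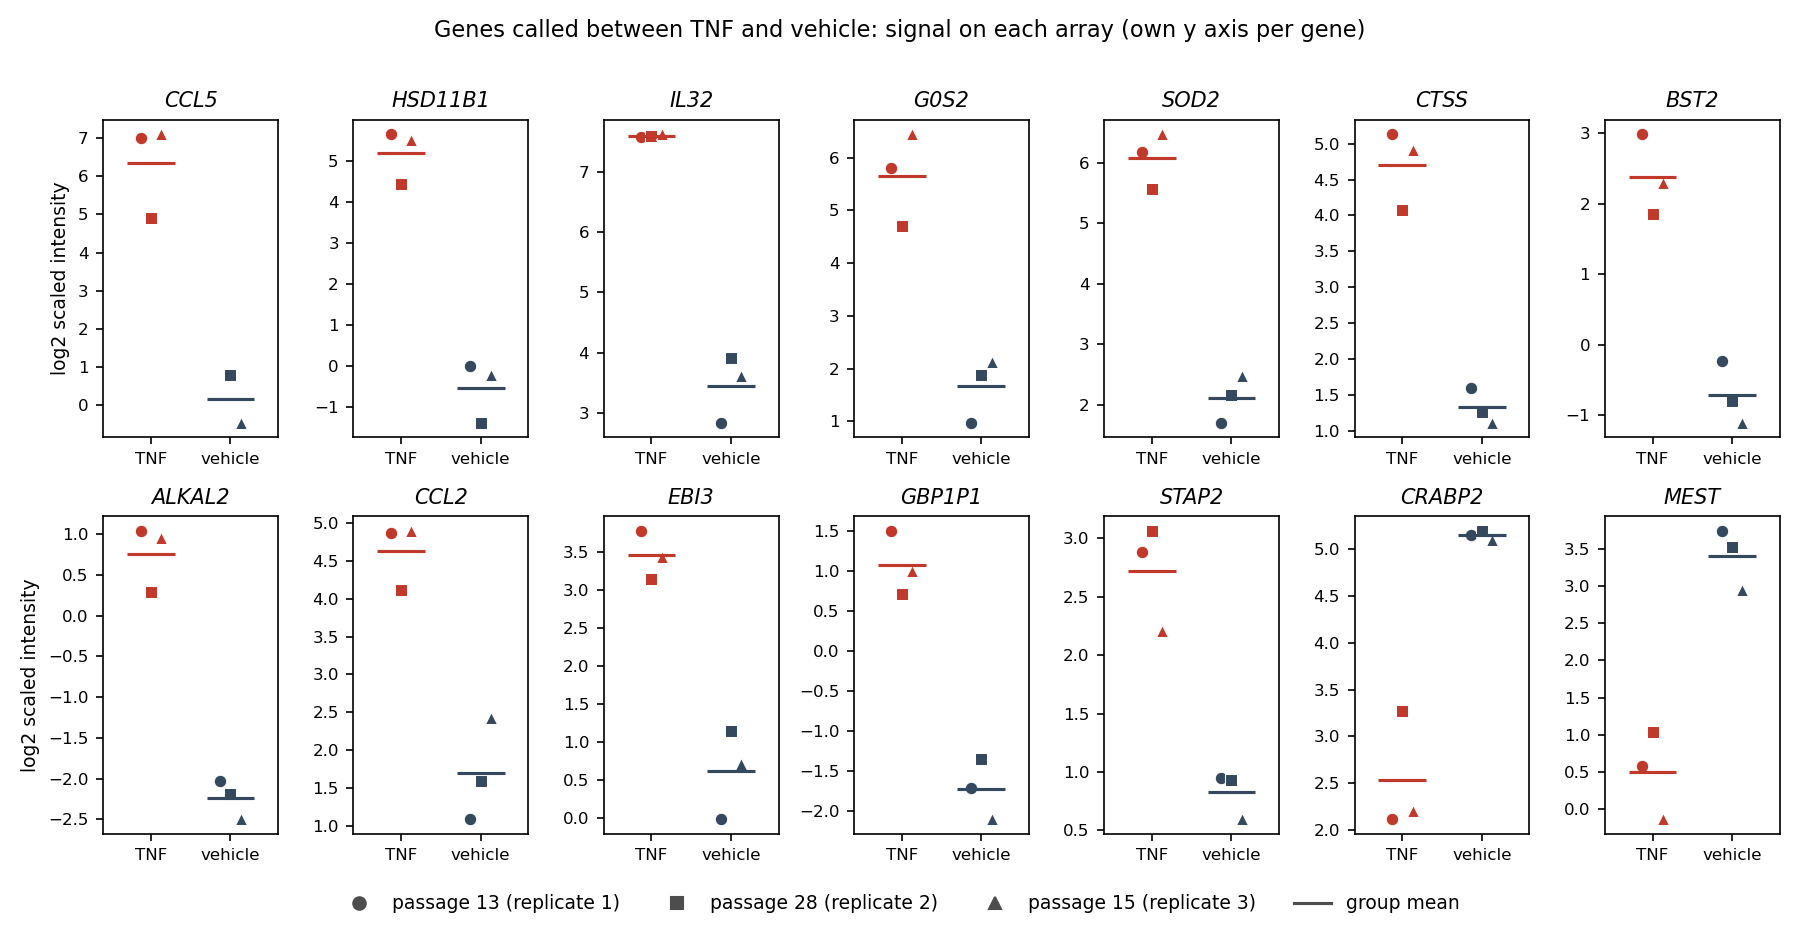
Each panel shows the log2 scaled intensity (y axis, own range per gene) of a gene called between TNFα (left) and vehicle (right). Points are single arrays, symbols mark the passage and lines are group means. No TNFα array overlaps a vehicle array in any panel, and CCL5 has 2 vehicle values.

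Of the 25 probes called, 17 belonged to a single gene. Beside the 14 representative probes and the second HSD11B1 probe they were a second probe of IFI27, an interferon-induced mitochondrial protein, and one of GRIA3, a glutamate receptor subunit. The IFI27 probe read 29.2, 18.7 and 25.3 with TNFα, against 1.36, 2.20 and 4.27 with vehicle (3.36 ± 0.41, adjusted p = 0.0271), and the brighter IFI27 probe differed by 3.30 ± 0.51 without passing (adjusted p = 0.0827). The GRIA3 probe differed by 2.13 ± 0.28 (adjusted p = 0.0432), but the other GRIA3 probes gave 1.16 and 0.89 and did not pass. The remaining 8 called probes are not named here, 7 of them higher with TNFα. The brightest of these read 202, 219 and 168 with TNFα and 66.4, 58.6 and 54.2 with vehicle (1.71 ± 0.21, adjusted p = 0.0271).

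Among the raised genes the TNFα signal was mostly lowest at passage 28. That passage gave the lowest of the 3 TNFα arrays for 10 of the 12 raised genes, and the smallest difference within a passage for 8 of the 11 with all values. Over bright genes with all TNFα arrays above all vehicle arrays and at least a 2-fold change, 149 in number, the array with the lowest TNFα value was that of passage 28 for 99, of passage 15 for 42 and of passage 13 for 8. Without the limit on fold these counts were 264, 148 and 90 of 502. With no limit on brightness either they were 360, 219 and 163 of 741, a tie counting for each array. CXCL8, for example, was at 113 at passage 28 and at 587 and 717 at the other passages with TNFα. Leaving out TNFα replicate 2 gave 45 called probes, and leaving out TNFα replicate 1 gave 10. With 1 culture per passage and treatment, passage and culture cannot be told apart.

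**Figure D3:**
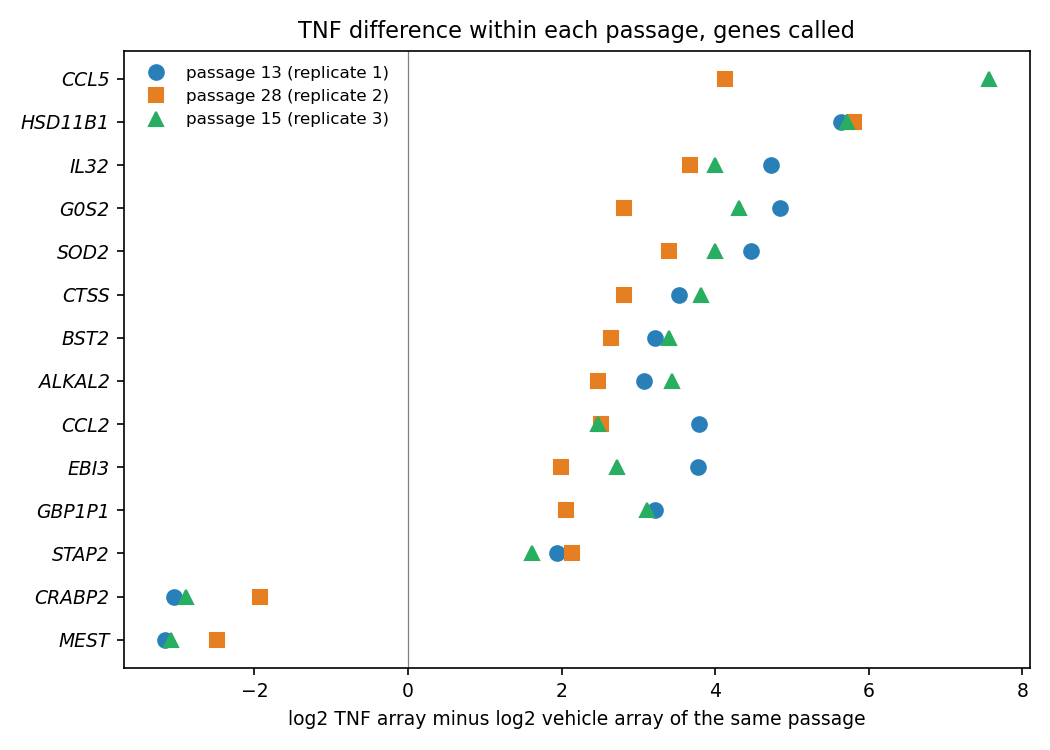
For each called gene (y axis), the log2 intensity of the TNFα array minus that of the vehicle array of the same passage (x axis), 1 symbol per passage. Raised genes lie right of 0 and MEST and CRABP2 left of it in every passage, and the passage 28 symbol is the leftmost for 8 of 11 raised genes with all values.

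Upstream sequence was read for the called genes from RefSeq (GRCh38.p14), as the 250 bases before a listed start of each gene. For SOD2 that start lies inside the full span of the gene, so its window is not upstream of the whole gene. Of the 14 genes 10 had an entry, and CTSS, CCL5, CCL2 and GBP1P1 had none. The NF-κB consensus of textbooks, read on both strands, was found in 3 of these 10, IL32, STAP2 and BST2, and in 5.21% of 35116 promoters. The core of the interferon-stimulated response element was found in 1, BST2, and in 3.02% of promoters. A looser NF-κB form was in 9 of the 10 and in 54.4% of all promoters. Which NF-κB form to count was settled after these promoters had been seen, with a form between the loose one and the consensus tried and dropped, so nothing is read from these counts. The 3 with the consensus are shown as examples of the letters, with the interferon element in BST2 beside them. Whether NF-κB acts at these letters was not tested. Capitals mark the matches of the consensus and of the interferon element, and a match does not show binding. The IL32 window is chr16:3065153-3065402 on the plus strand, the STAP2 window chr19:4338828-4339077 and the BST2 window chr19:17405631-17405880, both on the minus strand.
IL32: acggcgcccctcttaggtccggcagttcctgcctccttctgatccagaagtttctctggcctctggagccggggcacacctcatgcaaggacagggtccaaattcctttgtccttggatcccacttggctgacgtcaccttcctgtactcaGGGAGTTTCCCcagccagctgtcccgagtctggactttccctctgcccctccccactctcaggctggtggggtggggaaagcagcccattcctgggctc
STAP2: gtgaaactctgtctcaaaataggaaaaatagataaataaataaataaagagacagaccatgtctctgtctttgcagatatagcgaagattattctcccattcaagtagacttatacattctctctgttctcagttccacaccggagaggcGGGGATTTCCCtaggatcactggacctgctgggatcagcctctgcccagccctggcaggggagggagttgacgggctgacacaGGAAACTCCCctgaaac
BST2: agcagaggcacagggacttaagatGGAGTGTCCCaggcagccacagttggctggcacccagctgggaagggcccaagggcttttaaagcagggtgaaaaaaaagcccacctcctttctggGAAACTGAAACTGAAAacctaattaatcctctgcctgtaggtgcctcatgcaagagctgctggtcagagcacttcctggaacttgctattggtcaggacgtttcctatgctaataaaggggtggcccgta
In IL32 overlapping matches of the consensus begin 99 bases before the start, and in STAP2 100 bases before it, with a further STAP2 match from 17 to 8 bases before the start. In BST2 the interferon element occurs as 2 overlapping matches from 130 to 115 bases before the start, and the NF-κB letters lie farther out. STAP2 and EBI3 are near each other on chromosome 19, 86514 bases and 4 genes apart.

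Pathways were followed through 53 gene lists with 960 members tested, of which 11 lists held a called gene. Because few members passed singly, each list is also given by how many members had all 3 TNFα arrays above, or all below, all 3 vehicle arrays. Over all genes with 6 values these shares were 4.25% above (741 of 17429) and 4.65% below (811). The median change of all genes was −0.02, and medians below are log2 changes over tested members.

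Of 26 receptors, adaptors and kinases of TNFα's own path 0 were called, and 1 lay above and 1 below without overlap. Higher in each of the 3 passages were 10 (38.5%), against 12.2% of all genes. The median was 0.16, with 0.02 without vehicle replicate 3 and 0.32 without vehicle replicate 1. TRAF1, an adaptor that NF-κB itself induces, read 14.5, 6.88 and 7.95 with TNFα and 3.06, 3.82 and 1.07 with vehicle (1.99 ± 0.49, adjusted p = 0.356). The receptor TNFRSF1A differed by −0.19 ± 0.69 and TNFRSF1B by 0.51 ± 0.47, both with overlapping groups. TNF itself read 6.48, 6.84 and 6.46 with TNFα and 6.47, 7.34 and 6.98 with vehicle (−0.07 ± 0.16), and among reference genes GAPDH differed by −0.01 ± 0.15 and ACTB by −0.09 ± 0.32. TERT, the catalytic subunit of telomerase, was under the median probe on every array of both groups (0.11 ± 0.34).

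NF-κB subunits and their inhibitors stood higher as a group. Of 10 members tested 4 lay above without overlap (40%), 0 below, and the median was 0.79. The inhibitor NFKBIA, also on the list, had no single-gene probe that could be tested. NFKBIE, an inhibitor of NF-κB, read 22.4, 15.2 and 13.6 with TNFα and 7.58, 6.37 and 2.81 with vehicle (1.70 ± 0.36, adjusted p = 0.251). RELB, the subunit of the non-canonical path, read 18.1, 14.0 and 10.4 with TNFα and 5.95, 5.90 and 2.20 with vehicle (1.70 ± 0.42, adjusted p = 0.369). NFKB1, the precursor of p50, read 84.7, 61.2 and 50.8 with TNFα and 46.9, 35.8 and 11.2 with vehicle (1.27 ± 0.47, adjusted p = 0.614). In NFKBIE, RELB and NFKB1 alike the vehicle array of passage 15, the one that lay apart, was the low value. No member passed, and the list's median was 0.31 without that array.

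A list of 10 genes joined TNF-induced genes with proteins that feed back on NF-κB. Of these 4 lay above without overlap (40%), 9 were higher in each of the 3 passages, and the median was 0.75. TNIP3, which binds ubiquitin chains and restrains NF-κB, read 3.09, 1.16 and 2.71 with TNFα and 0.584, 0.247 and 0.328 with vehicle (2.56 ± 0.42, adjusted p = 0.0992). TNFAIP3, the ubiquitin-editing enzyme A20, read 9.15, 3.01 and 3.96 with TNFα and 1.73, 1.01 and 0.811 with vehicle (2.09 ± 0.46, adjusted p = 0.271). TNIP1, a partner of A20, differed by 1.67 ± 0.46 (adjusted p = 0.426), and ZC3H12A, an RNase that destroys cytokine messages, by 0.74 ± 0.26 (adjusted p = 0.588). Leaving out an array or a passage moved the median of this list between 0.48 and 0.96.

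Of 10 CC chemokines 2 were called, 4 of the 9 with all values lay above without overlap (44.4%), and the median was 1.10. That median was 0.54 without vehicle replicate 1, 0.50 without replicate 1 in both groups, and 1.6 without vehicle replicate 3. CCL7, a monocyte attractant, read 22.2, 5.96 and 14.9 with TNFα and 1.76, 2.24 and 2.50 with vehicle (2.55 ± 0.48, adjusted p = 0.169). The eosinophil attractant CCL11 read 12.3, 1.21 and 16.5 with TNFα and 0.669, 2.17 and 1.72 with vehicle. It was high at passages 13 and 15 and within the vehicle range at passage 28.

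Of 6 CXC chemokines that attract neutrophils 0 were called, 1 lay above without overlap (16.7%) and 0 below. That one was CXCL8, while CXCL2, CXCL3, CXCL5 and CXCL6 overlapped. CXCL8, interleukin 8, read 587, 113 and 717 with TNFα and 28.0, 17.3 and 24.7 with vehicle (3.99 ± 0.57, adjusted p = 0.0612), and without TNFα replicate 2 its adjusted p was 0.000435. CXCL10 and CXCL11 attract T cells through CXCR3. Of 7 CXCR3 ligands and homeostatic chemokines these 2 lay above without overlap (28.6%) and 0 below, while CXCL9 and CXCL16 overlapped. CXCL10 read 4.0, 0.939 and 6.09 with TNFα and 0.0962, 0.388 and 0.435 with vehicle (3.49 ± 0.78, adjusted p = 0.275), and CXCL11 differed by 3.08 ± 0.63 (adjusted p = 0.215). Both had their lowest TNFα value at passage 28. The homeostatic chemokine CXCL12 read 4.51, 7.02 and 2.62 with TNFα and 23.5, 15.8 and 2.40 with vehicle, overlapping at passage 15.

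Of 24 inflammatory cytokines 2 were called, IL32 and EBI3, with 5 above (20.8%) and 2 below without overlap and a median of 0.28, which ran from 0.28 to 0.55 as an array or a passage was left out. Without replicate 2 in both groups it was 0.55, and without TNFα replicate 2 alone 0.45. IL33, an alarmin kept in the nucleus, read 25.4, 15.3 and 13.9 with TNFα and 2.48, 0.643 and 1.6 with vehicle (3.68 ± 0.59, adjusted p = 0.09). IL34, a ligand of the macrophage growth factor receptor, read 11.8, 9.46 and 4.64 with TNFα and 2.45, 1.74 and 1.16 with vehicle (2.24 ± 0.40, adjusted p = 0.136). IL33 and IL34 had their lowest TNFα value at passage 15, and both groups of each were separate.

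Ligands and receptors of the TNF superfamily were mixed. Of 29 with all values 7 lay above (24.1%) and 1 below, 0 were called, and the median was −0.05. CD40, the receptor through which T cells activate their partners, read 1.57, 0.994 and 1.12 with TNFα and 0.265, 0.443 and 0.298 with vehicle (1.88 ± 0.27, adjusted p = 0.0643). TNFSF13B, the B-cell survival factor BAFF, differed by 2.22 ± 0.44 (adjusted p = 0.197). TNFRSF11B, the decoy receptor osteoprotegerin, read 15.8, 11.1 and 16.6 with TNFα and 4.68, 4.22 and 3.99 with vehicle (1.74 ± 0.36, adjusted p = 0.225). TNFRSF19 went the other way, at 8.22, 6.84 and 6.75 with TNFα and 25.9, 12.3 and 14.1 with vehicle (−1.19 ± 0.38, adjusted p = 0.526).

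Leukocyte adhesion molecules gave 3 of 16 members above without overlap (18.8%) and 0 below, with 0 called. CD58, the ligand of CD2 on T cells, read 12.8, 11 and 16.3 with TNFα and 4.17, 4.40 and 6.15 with vehicle (1.45 ± 0.21, adjusted p = 0.0643). ICAM2, a ligand of leukocyte integrins, was dim and differed by 1.88 ± 0.27 (adjusted p = 0.0643). Their adjusted p with the passage block was 0.132 and 0.169.

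**Figure D4:**
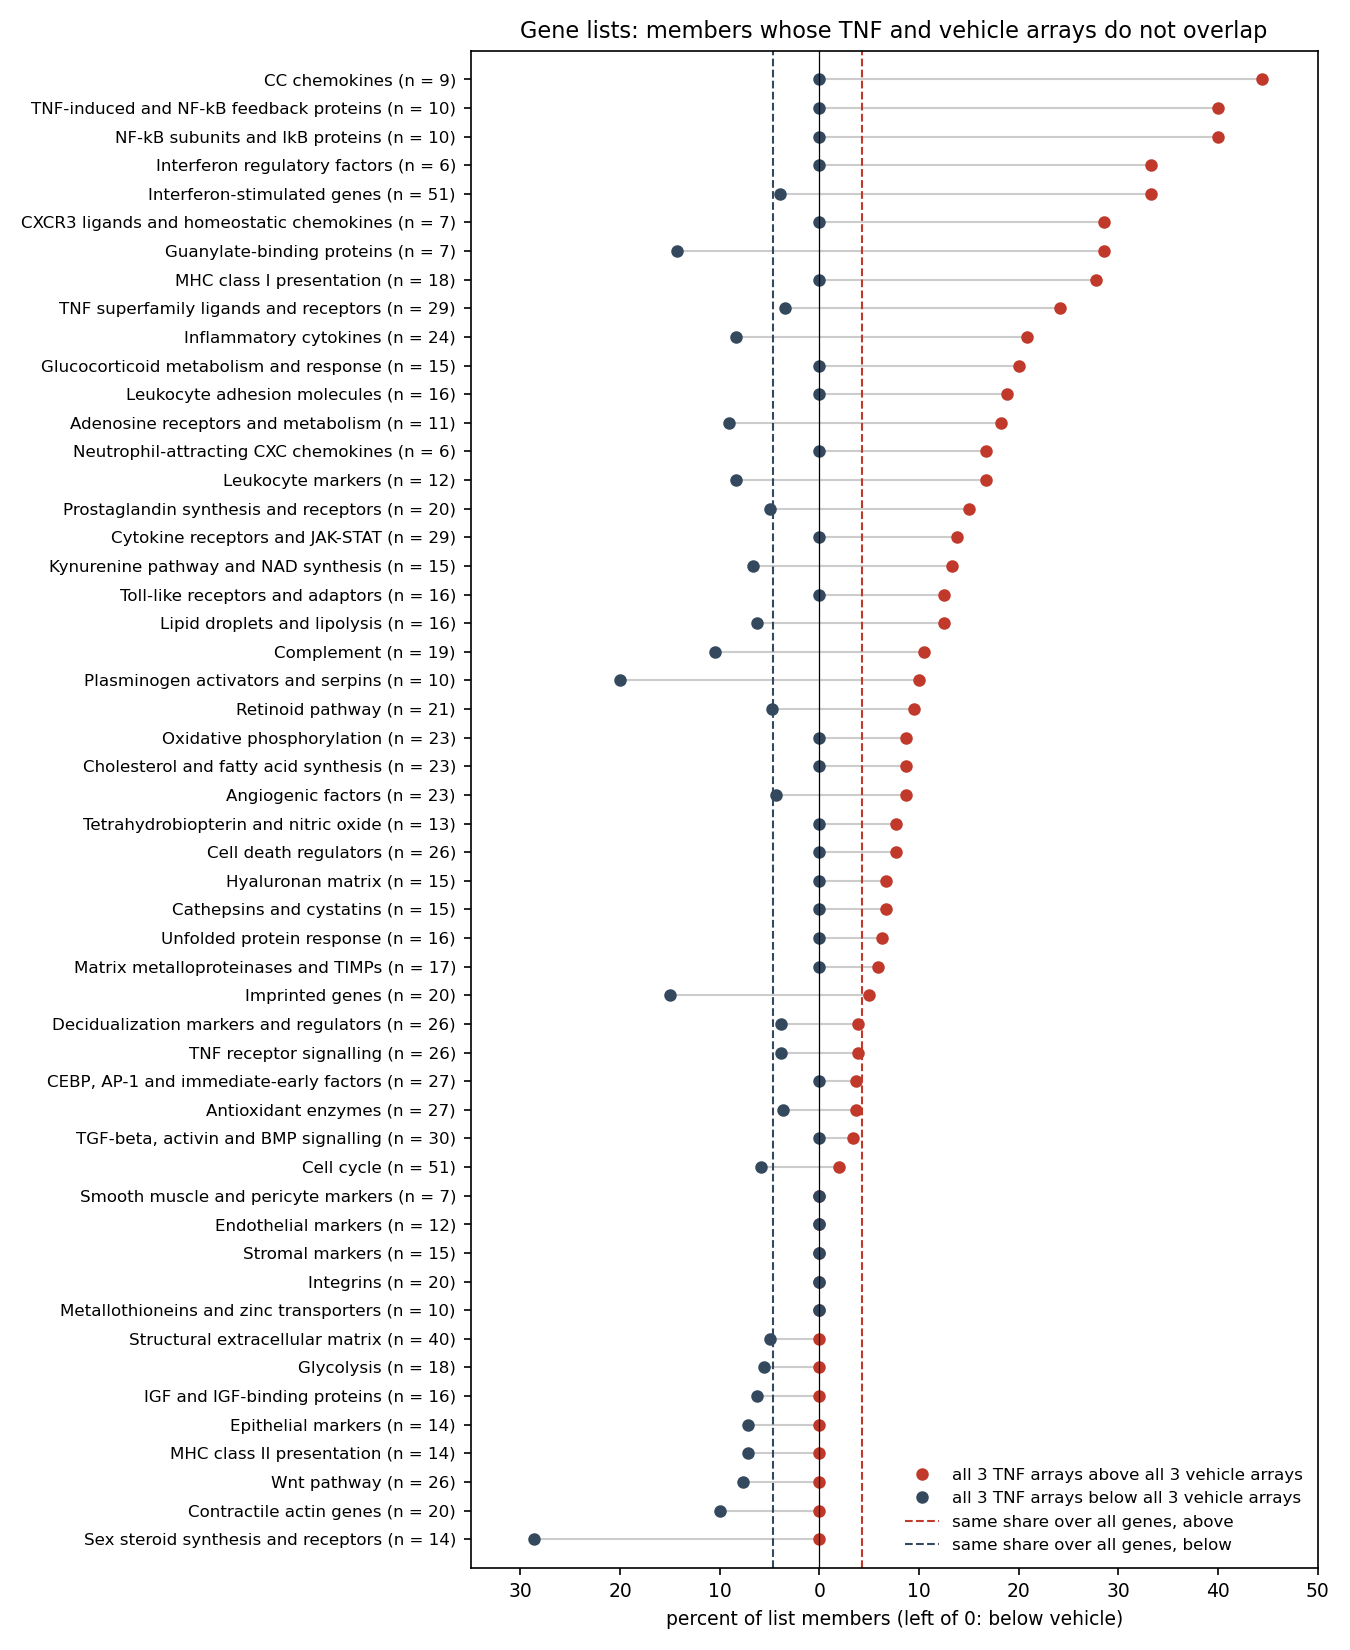
For each gene list with at least 6 members measured on all 6 arrays (y axis, number of members in brackets), the percent of members with all TNFα arrays above (red, right of 0) and all below (dark, left of 0) all vehicle arrays. Dashed lines give the same shares over all genes, 4.25% and 4.65%, and the red points of CC chemokines, NF-κB feedback proteins and NF-κB subunits lie at 40% or more.

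Interferon-stimulated genes make products that block viral entry, translation and spread. Of 51 tested, 1 was called by its representative probe (BST2), 17 lay above without overlap (33.3%) and 2 below, 45 had a positive difference, and the median was 0.48. Leaving out an array or a passage kept the median between 0.32 and 0.66. LAP3, a leucine aminopeptidase, read 34.5, 21.0 and 34.5 with TNFα and 11.1, 9.97 and 7.72 with vehicle (1.62 ± 0.24, adjusted p = 0.0658). IFI35 differed by 1.24 ± 0.21 (adjusted p = 0.116). EPSTI1 read 11.6, 7.44 and 14.0 with TNFα and 3.03, 3.40 and 3.19 with vehicle (1.73 ± 0.30, adjusted p = 0.127). The vehicle arrays of EPSTI1 were within a narrow band and all TNFα arrays lay above it.

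Of the interferon regulatory factors that drive such genes 2 of the 6 with all values lay above without overlap (33.3%), 0 were called and the median was 0.34. IRF7, the regulator of the later interferon response, read 15.5, 8.04 and 8.90 with TNFα and 5.57, 4.69 and 2.80 with vehicle (1.31 ± 0.35, adjusted p = 0.4). IRF9, the DNA-binding part of the interferon-activated complex, differed by 0.48 ± 0.21 without overlap, and IRF1 and IRF5 by 0.34 ± 0.34 and 0.31 ± 0.31 with overlap. The receptor subunit IFNAR2 read 10.9, 7.02 and 12.2 with TNFα and 4.68, 4.48 and 3.45 with vehicle (1.23 ± 0.23, adjusted p = 0.162). The list of cytokine receptors and JAK-STAT members, to which it belongs, had a median of 0.34, and −0.18 without vehicle replicate 3.

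All 18 genes of MHC class I presentation that were tested had a positive difference, although 0 were called. Of these 5 lay above without overlap (27.8%), 0 lay below, 14 were higher in each of the 3 passages, and the median was 0.55 (0.35 to 0.69 when an array or a passage was left out). The immunoproteasome subunit PSMB10 read 32.0, 22.2 and 43.4 with TNFα and 8.68, 14.5 and 18.0 with vehicle (1.26 ± 0.30, adjusted p = 0.323). The proteasome activators PSME2 and PSME1 differed by 1.31 ± 0.36 and 0.77 ± 0.23. HLA-G, the class I molecule best known from the placenta, read 287, 243 and 256 with TNFα and 172, 189 and 171 with vehicle (0.56 ± 0.16, adjusted p = 0.465). HLA genes are near-copies of each other, so a probe may report several. For MHC class II the median was 0.17, with 0 of 14 members above and 1 below.

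The glucocorticoid list, with HSD11B1 as 1 of its 15 members, had a median of −0.03 and no other call. Of its members 3 lay above without overlap (20%) and 0 below, namely HSD11B1, ZBTB16 and NR3C2 (0.76 ± 0.22, adjusted p = 0.476). Among targets of the glucocorticoid receptor, ZBTB16 differed by 0.85 ± 0.29, FKBP5 by 0.98 ± 0.67 with overlap, and DUSP1 by −0.60 ± 0.34 with overlap. ZBTB16 and FKBP5 were dim. The 27 antioxidant genes tested, SOD2 among them, had a median of 0.11 (−0.03 to 0.23 when an array or a passage was left out), with 1 above and 1 below without overlap. The one below, TXNIP, the inhibitor of thioredoxin, read 63.2, 69.2 and 52.6 with TNFα and 142, 83.8 and 81.5 with vehicle (−0.69 ± 0.25, adjusted p = 0.6). KYNU, the kynureninase of tryptophan breakdown, read 3.31, 1.44 and 6.45 with TNFα and 0.495, 0.660 and 0.281 with vehicle (2.80 ± 0.52, adjusted p = 0.16).

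COXFA4L3, a small mitochondrial protein related to a cytochrome oxidase subunit, read 9.64, 2.29 and 19 with TNFα and 0.147, 0.508 and 0.336 with vehicle (4.68 ± 0.70, adjusted p = 0.0658). It was the highest member of an oxidative phosphorylation list whose median was 0.49, and −0.02 without vehicle replicate 1, where NDUFA1 read 45.3 against 105 and 222 on the other vehicle arrays. TAC3, the precursor of neurokinin B, read 6.86, 2.40 and 9.71 with TNFα and 0.237, 0.237 and 0.551 with vehicle (4.11 ± 0.82, adjusted p = 0.204). COXFA4L3 and TAC3 both had their lowest TNFα value at passage 28.

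Among bright genes at least 2-fold changed without overlap, 149 were higher with TNFα and 17 lower. Brightness was judged with the cytokine arrays included, so these counts cannot say whether large decreases were fewer than large increases. HSD11B1 counted as bright with a vehicle mean of −0.53 on the log2 scale. The lowered gene ASPN did not, with a vehicle mean of 0.66. Without the limits on brightness and fold, 741 genes lay above and 811 below without overlap. The list with the highest share below without overlap was sex steroid synthesis and receptors, at 4 of 14 (28.6%), with 0 above and a median of −0.20 (−0.22 to −0.05 when an array or a passage was left out). The progesterone receptor PGR read 3.15, 1.88 and 2.83 with TNFα and 8.21, 3.72 and 3.63 with vehicle (−0.91 ± 0.33, adjusted p = 0.606). The oestrogen receptor ESR1 read 1.53, 2.04 and 2.01 with TNFα and 2.61, 2.26 and 3.24 with vehicle (−0.54 ± 0.28, adjusted p = 0.764). The other members below were HSD17B1 and HSD17B2, enzymes that interconvert strong and weak oestrogens, and both were under the median probe on every array of the 2 groups.

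ACTC1, the cardiac actin that cultured stromal cells also make, read 19.4, 29.8 and 27.7 with TNFα and 76.9, 83.3 and 121 with vehicle (−1.87 ± 0.33, adjusted p = 0.134). It and the actin-capping CAPG were the 2 of 20 contractile genes below without overlap, and the list's median was −0.24 (−0.49 to 0.01 when an array or a passage was left out). ANGPT1, which steadies blood vessels, read 3.80, 3.97 and 4.83 with TNFα and 12.9, 8.93 and 10.9 with vehicle (−1.37 ± 0.36, adjusted p = 0.399). The arrays with IL1β went the other way: ANGPT1 read 9.14, 8.15 and 7.71 with both cytokines and 6.90, 5.30 and 2.21 with IL1β alone (0.94 ± 0.36), without overlap, and the difference between the differences was 2.31 ± 0.51 (adjusted p = 0.966). Fibroblast growth factor FGF2 of the same angiogenic list was higher, at 42.1, 34.6 and 40.6 with TNFα and 21.6, 25.1 and 15.7 with vehicle (0.93 ± 0.23, adjusted p = 0.369). Besides MEST, the imprinted genes H19 (−0.65 ± 0.21) and SNRPN (−0.74 ± 0.25) lay below without overlap, 3 of 20 in all. PHLDA2, an imprinted gene that restrains placental growth, lay above, at 116, 121 and 143 with TNFα and 26.4, 110 and 81.9 with vehicle (1.03 ± 0.44, adjusted p = 0.689).

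Of the 10 largest decreases among bright genes without overlap, 5 belonged to none of the genes described so far, and none passed. FLOT1, a scaffold protein of membrane rafts, read 17.2, 28.2 and 11.7 with TNFα and 52.7, 49.1 and 34.2 with vehicle (−1.32 ± 0.31, adjusted p = 0.299). HSPB6, a small heat shock protein of muscle, read 1.93, 5.35 and 1.93 with TNFα and 8.58, 9.91 and 10.6 with vehicle (−1.84 ± 0.51, adjusted p = 0.433). The formin DIAPH3, which builds actin filaments, differed by −1.16 ± 0.38, and the hair keratin partner KRTAP1-5 by −1.56 ± 0.61. ARGLU1, a regulator of splicing, differed by −2.19 ± 0.95, with 155 on the vehicle array of passage 15 against 9.20 and 5.85 on the other vehicle arrays.

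Several lists had no stable direction. The median of 40 structural matrix genes was −0.25, but 0.21 without vehicle replicate 1 and −0.64 without vehicle replicate 3. Of its members 2 lay below without overlap and 0 above, and COL15A1, a collagen of basement membranes, was at 2.60, 2.18 and 2.27 with TNFα and 4.38, 5.17 and 3.69 with vehicle (−0.90 ± 0.23, adjusted p = 0.399). The median of 51 cell cycle genes was −0.23, with a range of −0.83 to 0.18 as arrays or passages were left out, and FOXM1, a driver of mitotic genes, read 1.41, 1.43 and 1.29 with TNFα and 2.20, 2.91 and 1.95 with vehicle (−0.75 ± 0.23, adjusted p = 0.501). Matrix metalloproteinases had a median of 0.03. MMP3 read 24.9, 13.7 and 29.1 with TNFα and 7.28, 13.6 and 9.14 with vehicle, and at passage 28 both arrays were equal to within 0.1.

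The arrays with IL1β offered TNFα a second time, in the same passages but without any array of the comparison with vehicle. They had entered the estimate of spread behind the 14 calls, so this look was not independent of the choice of genes. All 14 called genes differed in the same direction between TNFα plus IL1β and IL1β alone, 13 of them without overlap, where 9.59% of genes lay above and 5.76% below. In that comparison 0 probes passed, and 2347 had an unadjusted limma p under 0.05, fewer than the 2684 that chance gives. BST2 read 9.36, 10.9 and 11.3 with both cytokines and 2.35, 1.20 and 0.948 with IL1β alone, a difference of 2.92 ± 0.39 that was close to the 3.09 ± 0.39 without IL1β. MEST read 0.773, 1.38 and 0.679 with both cytokines and 5.01, 4.54 and 5.18 with IL1β alone (−2.45 ± 0.36), and CRABP2 differed by −1.98 ± 0.28.

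GBP1P1 differed by 2.38 ± 0.38 with IL1β, against 2.80 ± 0.38 without it. The TNFα difference shrank more for SOD2, HSD11B1 and CCL2 when IL1β was present. SOD2 read 114, 129 and 113 with both cytokines and 59.1, 50.7 and 38.1 with IL1β alone, a difference of 1.29 ± 0.29. HSD11B1 read 79.0, 105 and 108 with both cytokines and 35.1, 14.6 and 16.4 with IL1β alone, a difference of 2.25 ± 0.47. CCL2 overlapped, at 17.5, 26.8 and 25.0 with both cytokines and 24.0, 25.2 and 14.7 with IL1β alone (0.13 ± 0.38). The limma test of the difference between the differences called 0 of 53671 probes. At an unadjusted p under 0.05 there were 1927, fewer than the 2684 that chance gives. The difference between the differences was −2.67 ± 0.41 for SOD2 (adjusted p = 0.843) and −3.48 ± 0.67 for HSD11B1 (adjusted p = 0.843). All 14 genes had the smaller difference with IL1β, but they had been chosen for a large difference without it.

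**Figure D5:**
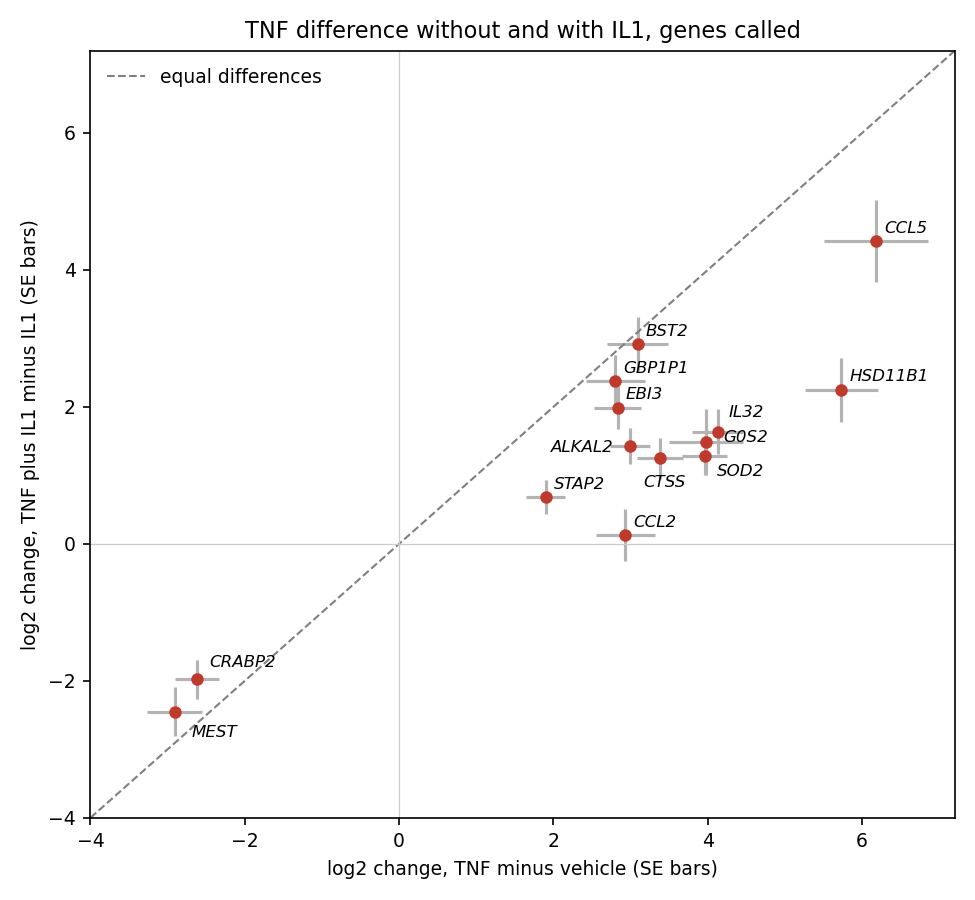
For the 14 called genes, the log2 change of TNFα minus vehicle (x axis) against that of TNFα plus IL1β minus IL1β alone (y axis), with standard errors. All 14 points share their sign on both axes, BST2, MEST, CRABP2 and GBP1P1 lie near the line of equal differences, and CCL2 lies near 0 on the y axis.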

How the data were processed

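Values were the linear intensities that the authors deposited, from single-colour arrays per the labels. How images were read, corrected and normalized was not given in the sources used here, and a scaling to the array median was inferred from medians close to 1. The code −9999 (0.716% of values) and values at or below 0 (1.1%) were set to missing before log2. Of 54359 probes, 23472 were listed with 1 gene, 905 with several and 29982 with none, and 53671 had 2 or more values in each group. With limma 3.58.1 (R 4.3.3), a mean per group was estimated over the 12 arrays of the series together (8 residual degrees of freedom), with Benjamini-Hochberg adjustment over all probes tested and a call at an adjusted p under 0.05. The fit was tested on simulated data. Among the probes of 1 gene alone, the one with the highest mean stood for the gene, and bright means above the median probe. Brightness was judged with the cytokine arrays included. The exact permutation test of 3 arrays against 3 cannot go below a two-sided p of 0.1, so none was used. Replicates are separate passages of 1 line with 1 culture each. The p-values of the main fit therefore measure the spread of arrays within groups, in which passage, culture and array are mixed.

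The labels give same-numbered arrays the same passage. Their residuals correlated at 0.618, 0.201 and 0.72 between TNFα and vehicle on bright probes (0.176, 0.028 and 0.31 over all probes). Between TNFα plus IL1β and IL1β alone they correlated at −0.031, 0.039 and 0.332 on bright probes (−0.02, 0.01 and 0.05 over all probes). Arrays are thus paired by label, but their signals did not go together in every pair, and the main fit had no passage term. The members, lists, rules and tests were chosen with earlier results of these data known. The rule for named genes took every called single-gene probe, up to 5 members of lowest p per list, and among representative probes the 10 largest increases and 10 largest decreases that were bright and without overlap. TNF, its receptors, TERT, ACTB and GAPDH were added, with other genes only as stated. Alternatives were other scalings, an offset of 0.104, filters, priors, array weights, the passage block, the 6 arrays alone, and leaving out arrays or passages.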

Additional observations from a re-analysis of the deposited data

How the results depend on the processing

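For TNFα against vehicle the main counts were 25 probes, 14 genes and 13 members of the gene lists called, and each alternative is given in that order. Quantile normalization gave 26, 16 and 12, median centring 23, 13 and 12, the offset 52, 34 and 22, bright probes only 50, 38 and 25, probes with all 12 values 36, 19 and 16, 1 probe per gene 37, 37 and 23, the trend and robust prior 57, 42 and 27, array weights 33, 22 and 16, and the replicate block 13, 9 and 9. The 6 arrays alone, with or without the replicate block, gave 0, 0 and 0. Leaving out 1 array of the 2 groups or 1 passage gave 0 to 45 probes, 0 to 26 genes and 0 to 20 list members: 10 probes without TNFα replicate 1, 45 without TNFα replicate 2, 16 without TNFα replicate 3, 31, 25 and 13 without vehicle replicates 1, 2 and 3, and 0, 0 and 1 without replicates 1, 2 and 3. Of the alternatives added after seeing the data, leaving out the 3 arrays that lay apart gave 0, 0 and 0, and leaving out the 4 arrays at the ends of the first component 12, 4 and 0. For TNFα plus IL1β against IL1β alone, 0 probes were called in the main fit and 41 with array weights, 1 without the 3 arrays, and 0 to 4 when an array or passage was left out. For the difference of the differences, 0 were called, 1 without the 4 arrays and 0 to 2 when an array or passage was left out. The fits with fewer arrays have fewer residual degrees of freedom; for the other changes the cause was not tested.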

Other observations

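A further 23 genes had an adjusted limma p from 0.05 to 0.1 for TNFα against vehicle, 21 higher and 2 lower, and those not yet given are described here, chosen after their values were seen. IFI30, the lysosomal thiol reductase that unfolds antigens, read 38.2, 24.3 and 45.8 with TNFα and 6.88, 8.43 and 11.1 with vehicle (2.01 ± 0.29, adjusted p = 0.0643). UBD, the ubiquitin-like protein FAT10, read 2.76, 1.30 and 1.12 with TNFα and 0.197, 0.208 and 0.265 with vehicle (2.85 ± 0.45, adjusted p = 0.0875), and its difference between TNFα plus IL1β and IL1β alone was 2.93 ± 0.45. WTAP, a subunit of the complex that methylates adenosine in RNA, read 51.2, 40.6 and 50.4 with TNFα and 19.9, 21.0 and 18.7 with vehicle (1.25 ± 0.17, adjusted p = 0.056). WTAP and SOD2 both lie on chromosome 6. The tight-junction protein CLDN1 read 22.6, 11.4 and 17.6 with TNFα and 2.71, 2.89 and 3.46 with vehicle (2.46 ± 0.37, adjusted p = 0.0744).

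Among enzymes, the thymidine phosphorylase TYMP read 9.97, 6.34 and 4.82 with TNFα and 1.62, 1.41 and 1.08 with vehicle (2.31 ± 0.37, adjusted p = 0.0875), and SQOR, the sulfide-oxidising enzyme of mitochondria, differed by 1.43 ± 0.23 (adjusted p = 0.09). CASP4, an inflammatory caspase that senses bacterial lipopolysaccharide, read 36.1, 26.2 and 35.6 with TNFα and 14.0, 14.1 and 15.8 with vehicle (1.14 ± 0.18, adjusted p = 0.0878). BMAL2, a relative of the circadian factor BMAL1, differed by 1.77 ± 0.28 (adjusted p = 0.0843). The genes on the lower side were ASPN, a small matrix proteoglycan, at 0.0877, 0.219 and 0.173 with TNFα and 4.05, 1.35 and 0.716 with vehicle (−3.40 ± 0.54, adjusted p = 0.0888), and NCF4, which had 2 TNFα values and was dim throughout (−2.63 ± 0.40, adjusted p = 0.0909). TCIM, DMRT3, CHMP4C and LOC105376292 were also higher on every TNFα array, by 1.46 to 2.12. With the passage block the adjusted p of all the genes named in these paragraphs, SOD2 aside, was over 0.1.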
